A study of Mus musculus with 13 samples.

Results

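The genes described here are 10 transcription factors of the ETS family, Ets1, Ets2, Fli1, Erg, Elf1, Elf2, Elf4, Gabpa, Etv6 and Spi1, chosen by name from a table of 43629 genes measured by RNA-seq in 13 mouse libraries. Each of the 10 names matched 1 gene, and all 10 passed the filter on low values, Erg through its 3 WT libraries alone. The libraries fall into 3 groups. Of these, 5 came from thymic lymphomas of Atm-/- mice of the 129S6/SvEv strain, which lack the ATM kinase of the DNA damage response. Another 5 came from thymic lymphomas of Rag2c/c p53-/- mice on a mixed background of C57BL/6 and 129S6/SvEv, which lack p53 and carry the core form of the RAG2 recombinase protein, without its C-terminal part. The other 3 came from the thymus of wild type (WT) C57BL/6 mice and were, per their labels, used before in another series. Animal ages and sexes are not given in the sources used here, RNA was taken from unsorted cell suspensions, and the lymphomas are not among the tumors of the published study of the WT thymuses. Strain and series of origin differ with genotype, so the effects of the 3 cannot be told apart. A second label of the WT samples names thymic lymphoma as their source, whereas their genotype, tissue and title fields name WT thymus.

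ETS factors share a winged helix-turn-helix domain, the ETS domain, that binds DNA around a GGAA core. Most members activate transcription, some repress it, and many bind next to partner proteins such as RUNX factors. In the T lineage, Ets1 is a main factor of thymocytes and mature T cells, PU.1 (encoded by Spi1) and Erg belong to the earliest progenitors and are shut off as cells commit to the lineage, and members such as Elf1, Elf4 and Gabpa are expressed in many blood cells.

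Values are the authors' normalized counts, rounded to whole numbers, so the reads behind them had to be estimated from their steps. The libraries held an estimated 6.37 to 38.8 M reads, with WT replicate 2 and Rag2c/c p53-/- replicate 2 the shallowest. Atm stood at 1559 to 2274 normalized counts in WT, at 208 to 732 in the Atm-/- lymphomas and at 439 to 1315 in the Rag2c/c p53-/- lymphomas. Trp53, which encodes p53, stood at 4387 to 6341, 6853 to 11318 and 2018 to 5461 in the same order, so its mRNA was still counted in the p53-deficient tumors. The thymocyte markers Cd3e, Cd4, Cd8a, Ptcra, Lck and Themis summed to 83078 to 123249 normalized counts in WT. In the Atm-/- lymphomas they summed to 43500 to 84852 and in the Rag2c/c p53-/- lymphomas to 58902 to 93788. Lck was the most abundant of them. The sum does not show single markers, as Cd4 was at 1201 in Atm-/- replicate 4.

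With all 13 libraries in the fit, 4 of the 10 ETS genes were lower in both kinds of lymphoma, and none was higher. Erg, a factor of progenitors, endothelium and megakaryocytes, went from about 115 normalized counts in the WT thymus to a mean of 3.2 in the Atm-/- and 1.8 in the Rag2c/c p53-/- lymphomas. Elf1, an activator in lymphoid cells, fell to 0.346 and 0.517 times its WT mean. Ets1 and its chromosomal neighbor Fli1 fell by less, to between 0.598 and 0.689 times their WT means. Spi1, Etv6, Elf2, Elf4, Gabpa and Ets2 did not pass the test in either lymphoma group, and no member passed it between the lymphoma groups. The count in the Rag2c/c p53-/- lymphomas leaned on single libraries: it was 0 without WT replicate 2, 1 without WT replicate 3 and 2 without WT replicate 1 or Rag2c/c p53-/- replicate 2 or 4, and in the Atm-/- lymphomas it was 2 without WT replicate 2 or 3. The highest counts with 1 library left out were 5 and 6 in the same order. Erg missed the filter, and so the count, whenever a WT library was left out.

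The test was limma on log2(normalized count + 1) over 15872 genes, with a threshold of 0.05 on the adjusted p. In the Atm-/- lymphomas, 4 of the 10 members passed as lower, against 23.6% of all genes tested, and 0 passed as higher, against 21%. In the Rag2c/c p53-/- lymphomas, 4 of 10 passed as lower, against 19.7% of all genes, and 0 as higher, against 17.5%. At an unadjusted p under 0.05, 6 of the 10 differed from WT in each of these comparisons, against 52.8% of all genes in the Atm-/- and 47.3% in the Rag2c/c p53-/- comparison, so that share was near the background. With a log2 difference of at least 1 also asked for, 2 members changed in each, Elf1 and Erg, against 17% of all genes lower by that rule in the Atm-/- and 13.9% in the Rag2c/c p53-/- lymphomas. All 5 lymphoma libraries lay below all 3 WT libraries for 7 of the 10 members in the Atm-/- group, where 27.9% of all genes did so, and for 7 of 10 in the Rag2c/c p53-/- group, where 24.2% did so. Erg is in each of these counts of lower members. It entered the fit through the WT libraries alone, so a difference was built into its being tested. The median log2 difference of the members was -0.68 and -0.57, beside -0.02 for all genes tested in both comparisons. Both comparisons share the 3 WT libraries, so their results are not independent of each other.

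**Figure D1:**
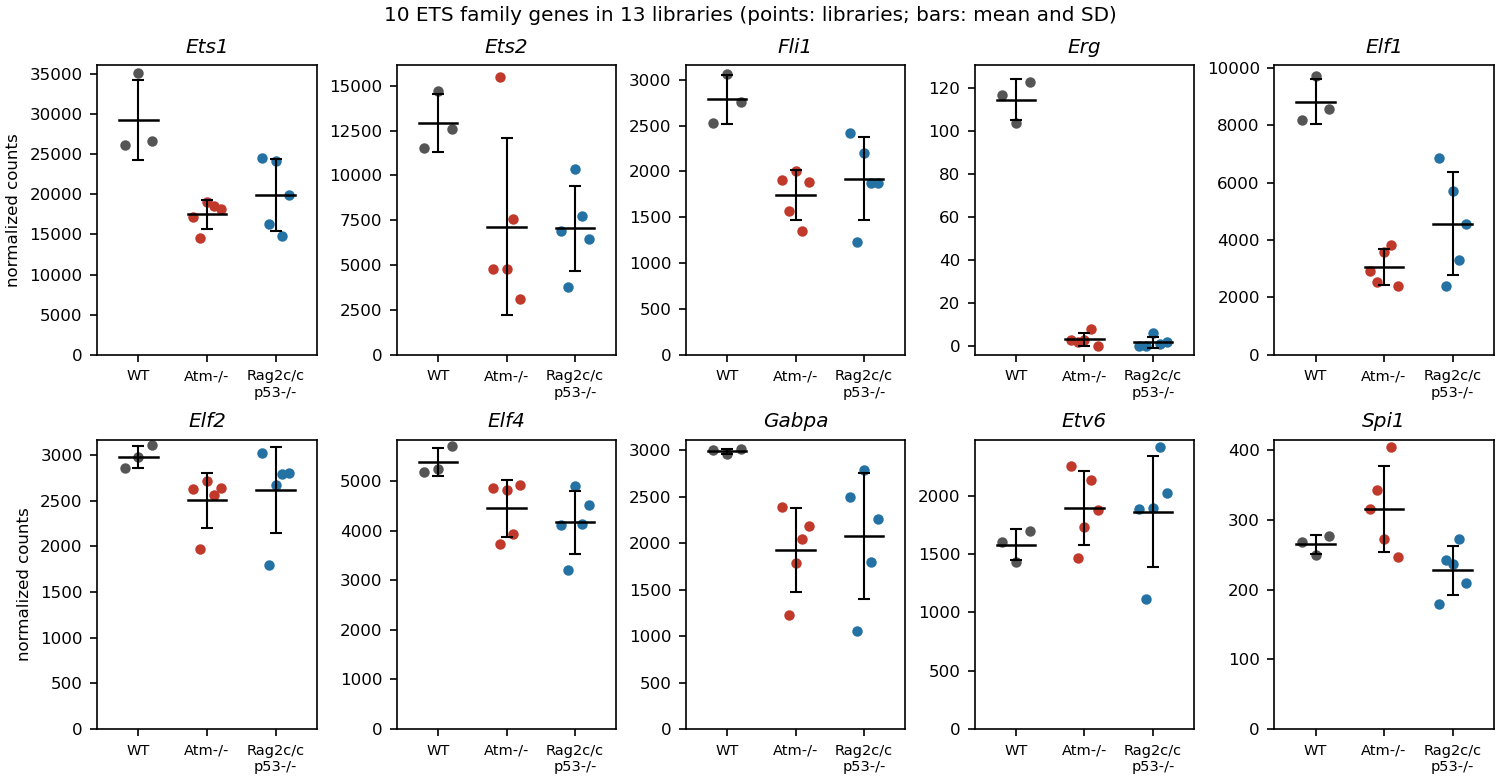
Normalized counts (vertical axis, linear, drawn from 0 except for a small margin below 0 in the Erg panel) of the 10 genes in the 3 WT, 5 Atm-/- and 5 Rag2c/c p53-/- libraries, with 1 point per library and bars for the group mean and SD. Every lymphoma library lies below every WT library for Erg, Elf1, Ets1, Fli1, Elf4 and Gabpa, and Atm-/- replicate 2 stands out at 15488 for Ets2.

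Per kilobase of merged exons, the scale on which genes can be set side by side, Ets1 was the highest of the 10 members in the WT thymus at 3456 ± 592 normalized counts per kb (SD, n = 3). It was followed by Ets2 at 2238 ± 282, Elf1 at 1310 ± 119, Elf4 at 877 ± 47.0 and Fli1 at 799 ± 77.8. Gabpa at 526 ± 4.79, Elf2 at 312 ± 12.8, Etv6 at 264 ± 22.1, Spi1 at 98.3 ± 5.10 and Erg at 33.1 ± 2.80 came after them. Of the other ETS genes, Elk4 stood between Elf1 and Elf4, Elk3 between Fli1 and Gabpa, and Erf between Gabpa and Elf2. Of neighbors among the members in this order, Elf4 and Fli1 overlapped in the WT libraries and the other pairs did not. In the Atm-/- lymphomas, Ets1 stayed first by its mean, at 2067 ± 211 normalized counts per kb (SD, n = 5). In Atm-/- replicate 2, however, Ets2 at 2680 per kb stood above Ets1 at 1721. Elf1 in the Atm-/- lymphomas, at 453 ± 94.2, came below Elf4 and Fli1, overlapping with Fli1. The Rag2c/c p53-/- lymphomas had Ets1 at 2350 ± 524 per kb, and their Elf1, at 678 ± 267, overlapped with both Elf4 and Fli1. Ets1 made up 28.0% ± 2.62, 26.8% ± 4.76 and 29.6% ± 3.62 of the summed per-kb level of 26 ETS genes in the WT, Atm-/- and Rag2c/c p53-/- groups, so its share overlapped between the groups while the sum went from 12306 ± 971 to 7813 ± 763 and 7971 ± 1565. The 10 members together held 80.4%, 77.3% and 81.3% of that sum.

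Ets1 lies on chromosome 9 (GRCm38, 32636221 to 32757820, plus strand), and its values were 26124, 35078 and 26675 in WT, 17165, 14585, 19109, 18546 and 18203 in the Atm-/- and 24494, 16272, 24175, 14772 and 19893 in the Rag2c/c p53-/- lymphomas. The 10 lymphoma libraries were all below the lowest WT library, by a narrow margin for replicates 1 and 3 of the Rag2c/c p53-/- group. The log2 difference from WT was -0.73 in the Atm-/- lymphomas (SE 0.19, 95% confidence interval -1.13 to -0.34, limma adjusted p = 0.0063). Against WT, the Rag2c/c p53-/- lymphomas gave -0.57 (SE 0.19, limma adjusted p = 0.0273), and this call was lost without Rag2c/c p53-/- replicate 2 (adjusted p = 0.0519), without its replicate 4 (0.0568), without WT replicate 2 (0.127), without WT replicate 3 (0.0564), and with these 2 groups alone in the fit (0.0567). In a bulk sample, fewer cells of a type and less RNA per cell cannot be told apart, and this holds for every level given here.

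Ets2, a close relative of Ets1 that responds to Ras and MAP kinase signals, lies on chromosome 16 (95702075 to 95721051, plus strand). Its values were 11517, 14713 and 12584 in WT, 4788, 15488, 4760, 7553 and 3131 in the Atm-/- and 6897, 3779, 10363, 7752 and 6435 in the Rag2c/c p53-/- lymphomas. Atm-/- replicate 2 exceeded every WT library, the other 4 Atm-/- libraries lay below them, and the Rag2c/c p53-/- libraries did not overlap with WT. The log2 difference was -1.08 in the Atm-/- group (95% confidence interval -1.98 to -0.18, limma adjusted p = 0.0501) and -0.94 in the Rag2c/c p53-/- group (-1.84 to -0.04, adjusted p = 0.0922). The Atm-/- call lay at the threshold: it passed in 4 of the 8 settings that changed the pseudocount, filter, scaling or fit (pseudocount 4, the filter at 50, recomputed size factors and equal column totals, with an adjusted p of 0.0473 to 0.0497) and in 3 of the 13 fits that left out 1 library. Without Atm-/- replicate 2, the Atm-/- difference was -1.42 with an adjusted p of 0.0035 and the Rag2c/c p53-/- comparison, at an unmoved difference, passed at 0.0264, as it did with the 2 groups alone in the fit (0.0261).

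Fli1, an activator of blood progenitors, endothelium and megakaryocytes that thymocytes also express, lies on chromosome 9 (32422204 to 32542861, minus strand), 93.4 kb from Ets1, with 1 gene between them that was too low to test. Its values were 2526, 3067 and 2763 in WT, 1905, 1573, 2010, 1350 and 1887 in the Atm-/- and 2424, 1226, 2206, 1872 and 1872 in the Rag2c/c p53-/- lymphomas. No lymphoma library reached the lowest WT library, and Rag2c/c p53-/- replicate 1 was within 102 normalized counts of it. The log2 difference was -0.69 (SE 0.21, limma adjusted p = 0.0160) in the Atm-/- and -0.57 (SE 0.21, limma adjusted p = 0.0437) in the Rag2c/c p53-/- lymphomas. The first call was lost without WT replicate 2 (adjusted p = 0.0679) or 3 (0.0526), and the second in 8 of the 13 fits that left out 1 library, where the adjusted p ran up to 0.145. The second was also lost in 4 of the 8 settings that changed the pseudocount, filter, scaling or fit, for example when column totals were made equal (adjusted p = 0.0552).

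Erg, the closest relative of Fli1, lies on chromosome 16 (95359169 to 95586593, minus strand) and gave the largest difference of the 10. It had 117, 104 and 123 normalized counts in the 3 WT libraries, 3, 2, 3, 8 and 0 in the Atm-/- and 0, 0, 6, 1 and 2 in the Rag2c/c p53-/- lymphomas. Converted by the estimated worth of 1 read, these are 32.2 to 230 reads in a WT library, 0 to 4.3 in an Atm-/- and 0 to 5.8 in a Rag2c/c p53-/- library. Every lymphoma library was thus at least 13-fold below every WT library in normalized counts. The ratio of group means was 35.8 between WT and Atm-/- and 63.7 between WT and Rag2c/c p53-/-, both resting on an estimated 10.6 and 9.0 reads over 5 lymphoma libraries. The log2 difference was -5.10 (SE 0.75, limma adjusted p = 0.000167) in the Atm-/- and -5.77 (SE 0.75, limma adjusted p = 0.000112) in the Rag2c/c p53-/- lymphomas. Erg entered the fit through the WT libraries alone, the group where it is high, so a difference was built into its being tested and its values are given as a description. With no filter on low values the adjusted p was 0.00013 and 7.56e-05. Because the lymphoma values sit near 0, these sizes depend on the pseudocount, and with 4 added in place of 1 they were -4.13 and -4.44. Both calls held in every fit in which Erg met the filter on low values. Leaving out a WT library put Erg below that filter, and with the minimum asked of 2 libraries it passed again, with an adjusted p of at most 0.0017.

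Of the 6 markers of early T progenitors, 4 were lower in the Atm-/- and 3 in the Rag2c/c p53-/- lymphomas, and the sum of the list was 957 to 1281 in WT, 249 to 960 and 432 to 1874 normalized counts. Among all genes tested, 23.6% and 19.7% passed as lower in these comparisons. Kit, the most abundant of the list, had 552, 445 and 555 in WT, 327, 9, 16, 11 and 648 in the Atm-/- and 1382, 952, 152, 513 and 1305 in the Rag2c/c p53-/- lymphomas, with log2 differences of -3.27 (limma adjusted p = 0.0491) and 0.38 (limma adjusted p = 0.835). Bcl11a, the gene of the list that differed most in the Rag2c/c p53-/- lymphomas, went from 187, 185 and 235 in WT to between 11 and 36 in the Atm-/- and between 6 and 20 in the Rag2c/c p53-/- lymphomas. Of 6 endothelial markers, 3 could be tested, of which 0 passed as lower in the Atm-/- and 2, Cdh5 and Kdr, in the Rag2c/c p53-/- lymphomas. Cdh5 and Kdr would not have met the filter on low values without the WT libraries, where they are high. A difference was thus built into their being tested, and their values are given as a description. The endothelial sum, most of it Pecam1, was 3609 to 3721 in WT, 3194 to 6189 and 1830 to 5255. It therefore follows Pecam1 and does not show the other markers. Cdh5 had means of 28.3, 17.6 and 3.6 and Kdr of 27.3, 9.4 and 3.6 in the same order. Of 6 megakaryocyte markers, 1 of the 4 tested passed, Pf4, which was higher in both lymphoma groups, and the sum of the list was 77 to 80, 132 to 286 and 83 to 232. Pf4, at 11, 16 and 6 in WT, would not have met the filter on low values without lymphoma libraries. A difference was thus built into its being tested. Among all genes tested, 21% and 17.5% passed as higher. The part of these cells in the Erg result was not tested.

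The RefSeq table of promoters (GRCm38.p6) matched 7 of the 10 members, all but Ets1, Fli1 and Spi1, with 12 start sites. The 250 bases before each of the 3 start sites of Erg are shown because Erg moved most, each 5′ to 3′ on the minus strand with every GGAA core, on either strand (TTCC on the strand shown), in capitals.
Erg outermost start, chr16:95586594-95586843: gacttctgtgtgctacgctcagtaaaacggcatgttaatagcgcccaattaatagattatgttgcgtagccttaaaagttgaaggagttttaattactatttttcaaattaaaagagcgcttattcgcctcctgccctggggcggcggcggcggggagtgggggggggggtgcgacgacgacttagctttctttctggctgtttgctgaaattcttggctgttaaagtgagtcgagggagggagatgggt
Erg middle start, chr16:95530366-95530615: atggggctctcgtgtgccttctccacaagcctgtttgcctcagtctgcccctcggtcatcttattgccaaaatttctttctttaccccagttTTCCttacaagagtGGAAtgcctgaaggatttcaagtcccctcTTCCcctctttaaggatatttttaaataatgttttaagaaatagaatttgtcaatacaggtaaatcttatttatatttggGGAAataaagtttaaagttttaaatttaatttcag
Erg innermost start, chr16:95459349-95459598: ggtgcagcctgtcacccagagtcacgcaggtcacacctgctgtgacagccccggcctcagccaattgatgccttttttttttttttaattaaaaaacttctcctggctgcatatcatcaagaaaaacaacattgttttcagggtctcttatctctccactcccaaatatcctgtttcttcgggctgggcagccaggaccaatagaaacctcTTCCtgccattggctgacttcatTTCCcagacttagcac
The window at the outermost start held no GGAA core, the middle one 4 and the innermost 2, beside a median of 3 over 32851 promoter windows of this length, of which 93.4% held at least 1. The longer motif CCGGAAG, a preferred ETS site searched on both strands and overlapping with the core, was in none of the 3 windows and in 6.9% of all windows.

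Elf1, an activator of T and natural killer cell genes, lies on chromosome 14 (79481194 to 79582476, plus strand). Its values were 8197, 9723 and 8552 in WT, 2935, 2530, 3590, 3826 and 2392 in the Atm-/- and 6869, 2381, 5707, 3314 and 4551 in the Rag2c/c p53-/- lymphomas. All lymphoma libraries were below WT, with the Rag2c/c p53-/- libraries spread over a 2.88-fold range. The log2 difference in the Atm-/- lymphomas was -1.55 (SE 0.29, limma adjusted p = 0.00088), and this call held in every alternative fit. For the Rag2c/c p53-/- lymphomas the difference was -1.05 (SE 0.29, limma adjusted p = 0.0123), which missed the threshold without WT replicate 2 (adjusted p = 0.0530) and without both shallowest libraries (-0.76, adjusted p = 0.0623). Between the lymphoma groups the difference was -0.51 (95% confidence interval -1.04 to 0.03, limma adjusted p = 0.219), and without Rag2c/c p53-/- replicate 2 it was -0.72 and passed (adjusted p = 0.0406). Wbp4, on the opposite strand, overlaps Elf1, and the strand setting used in counting these lymphomas is not given in the sources used here, so reads could be shared.
Elf1 outermost start, chr14:79480944-79481193, plus strand: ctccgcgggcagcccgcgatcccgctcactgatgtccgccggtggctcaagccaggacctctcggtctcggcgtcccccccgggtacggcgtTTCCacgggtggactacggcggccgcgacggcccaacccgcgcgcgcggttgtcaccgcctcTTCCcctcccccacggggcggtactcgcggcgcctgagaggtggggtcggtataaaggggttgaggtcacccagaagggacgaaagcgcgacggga
This window, shown because Elf1 is the other member that changed, held 2 GGAA cores (capitals) and no CCGGAAG.

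Elf2, a relative of Elf1 (chromosome 3, 51252720 to 51340663, minus strand), had 2860, 2976 and 3105 normalized counts in WT, 2630, 1971, 2714, 2561 and 2641 in the Atm-/- and 3026, 1797, 2674, 2789 and 2802 in the Rag2c/c p53-/- lymphomas. In each lymphoma group, 4 of the 5 libraries lay close together and replicate 2 lay far below them. Log2 differences were -0.26 (95% confidence interval -0.63 to 0.11, limma adjusted p = 0.228) and -0.21 (-0.58 to 0.16, adjusted p = 0.354). Elf4, a factor that restrains T cell proliferation (chromosome X, 48411046 to 48463132, minus strand), had 5188, 5259 and 5720 in WT, 4860, 3734, 4833, 3935 and 4922 in the Atm-/- and 4111, 3202, 4899, 4135 and 4525 in the Rag2c/c p53-/- lymphomas. All lymphoma libraries were below WT for Elf4, by log2 differences of -0.28 (95% confidence interval -0.61 to 0.05, limma adjusted p = 0.149) and -0.38 (-0.71 to -0.05, adjusted p = 0.0662) that did not pass the test.

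Gabpa, the DNA-binding subunit of the GABP complex that drives many housekeeping and mitochondrial genes, lies on chromosome 16 (84834925 to 84863779, plus strand). Its 3 WT libraries were almost equal at 2999, 2959 and 3011, while the lymphomas spread over 2384, 1226, 1782, 2048 and 2185 in the Atm-/- and 2501, 1050, 2787, 1796 and 2259 in the Rag2c/c p53-/- group. No lymphoma library reached WT, and replicate 2 was the lowest in each lymphoma group. The log2 differences were -0.67 (95% confidence interval -1.28 to -0.06, limma adjusted p = 0.0690) and -0.60 (-1.21 to 0.01, adjusted p = 0.111). Without Rag2c/c p53-/- replicate 2 the first of these, with the same difference, passed (adjusted p = 0.0162), as it did with the 2 groups alone in the fit (0.0221). Atp5j starts next to Gabpa on the opposite strand and overlaps it, so reads could be shared here too. Fli1 overlaps 2 and Elf2 overlaps 1 expressed gene, of at most 116 normalized counts on average.
Gabpa start, chr16:84834874-84835123, plus strand: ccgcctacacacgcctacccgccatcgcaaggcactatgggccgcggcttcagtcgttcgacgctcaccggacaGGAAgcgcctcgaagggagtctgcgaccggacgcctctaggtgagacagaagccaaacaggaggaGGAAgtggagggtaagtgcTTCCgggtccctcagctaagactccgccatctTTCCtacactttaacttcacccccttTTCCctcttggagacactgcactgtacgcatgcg
The Gabpa window is shown because it alone, of the 12 member windows, held CCGGAAG (read on the other strand as CTTCCGG), and it held 5 GGAA cores in all.

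Etv6, a repressor needed by blood stem cells, lies on chromosome 6 (134035700 to 134270158, plus strand) and had 1607, 1436 and 1696 normalized counts in WT. The Atm-/- lymphomas gave 2258, 1464, 1735, 2136 and 1882 and the Rag2c/c p53-/- lymphomas 1884, 1111, 1893, 2418 and 2022. Both groups overlapped with WT, with 4 of 5 libraries in each above the highest WT library, and the log2 differences were 0.25 (95% confidence interval -0.22 to 0.72, limma adjusted p = 0.370) and 0.20 (-0.27 to 0.67, adjusted p = 0.50). Etv6 was the one member whose fitted difference from WT was above 0 in both comparisons.

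Spi1, which encodes the myeloid and progenitor factor PU.1 (chromosome 2, 91082390 to 91115756, plus strand), had 268, 250 and 277 normalized counts in WT, 315, 343, 273, 404 and 246 in the Atm-/- and 179, 243, 236, 272 and 210 in the Rag2c/c p53-/- lymphomas. The 3 groups overlapped. The log2 difference from WT was 0.23 in the Atm-/- (95% confidence interval -0.24 to 0.71, limma adjusted p = 0.401) and -0.23 in the Rag2c/c p53-/- lymphomas (-0.70 to 0.24, adjusted p = 0.433). As background, 21% and 17.5% of all genes tested passed as higher in the Atm-/- and the Rag2c/c p53-/- lymphomas. Of the 5 myeloid markers in the table, 3 were higher in the Atm-/- and 1 in the Rag2c/c p53-/- lymphomas, and none was at 0. Their sum was 4081 to 5131 in WT, 6641 to 11478 in the Atm-/- and 3989 to 8504 in the Rag2c/c p53-/- lymphomas. The part of myeloid cells in the Spi1 level was not tested.

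**Figure D2:**
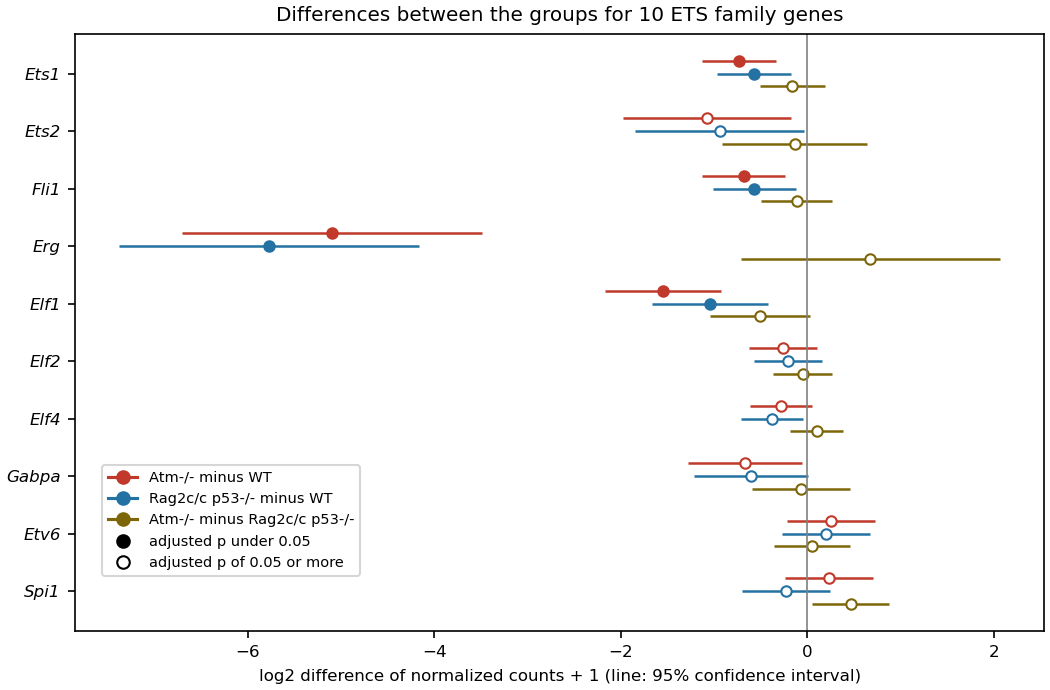
Log2 differences of normalized counts + 1 (horizontal axis) with 95% confidence intervals for the 10 genes in the 3 comparisons, with filled circles for an adjusted p under 0.05. Erg lies between -5.10 and -5.77 against WT, the filled circles of Ets1, Fli1 and Elf1 lie between -0.57 and -1.55, and every circle of the comparison of the lymphoma groups is open.

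Between the Atm-/- and the Rag2c/c p53-/- lymphomas, 0 of the 10 members passed the limma test, against 11.6% of all genes in either direction, and 1 had an unadjusted p under 0.05, against 26.2% of all genes. That gene was Spi1, with a mean of 316 ± 61.7 against 228 ± 35.2 (SD, n = 5 each), a log2 difference of 0.46 (95% confidence interval 0.05 to 0.87) and a limma adjusted p of 0.138. The confidence intervals of Ets1 (-0.51 to 0.18), Fli1 (-0.50 to 0.27), Elf2 (-0.37 to 0.27) and Elf4 (-0.19 to 0.39) lay within 1 log2 unit of 0 on both sides. So did those of Gabpa (-0.60 to 0.46), Etv6 (-0.36 to 0.46) and Ets2 (-0.92 to 0.64), and that of Spi1. The interval of Elf1 was -1.04 to 0.03. For Erg, with at most 8 normalized counts in any lymphoma, it was -0.72 to 2.06. These intervals bound the differences and do not show that the groups are alike.

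Single libraries pulled several members in one direction. Rag2c/c p53-/- replicate 2, the shallowest library, was the lowest of its group for 7 of the 10 members and for 30.0% of all genes tested. Atm-/- replicate 2 was the lowest of its group for 5 of 10 members (Ets1, Elf2, Elf4, Gabpa and Etv6) and for 30.4% of all genes, and the highest for Ets2. Without the 2 shallowest libraries of the series, WT replicate 2 and Rag2c/c p53-/- replicate 2, and with the value minimum asked of 2 libraries, 5 members passed as lower in the Atm-/- lymphomas (Ets1, Fli1, Erg, Elf1 and Gabpa) and 1, Erg, in the Rag2c/c p53-/- lymphomas. Under that setting the Rag2c/c p53-/- differences were -0.37 for Ets1 and -0.34 for Fli1. After the group means were removed, Ets1 and Elf1 moved together over the 13 libraries (Pearson r = 0.811, Spearman rho = 0.890), and Elf2 and Gabpa did so on the linear measure (r = 0.873, rho = 0.434). The libraries differ in depth, which such correlations share.

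The genes most like each member by the same measure, over 13 libraries and all genes tested, were Fnbp4 for Ets1 (r = 0.920), E2f5 for Ets2 (0.930), Reep3 for Fli1 (0.955) and 1810034E14Rik for Erg (0.927). For the others they were Cd97 for Elf1 (0.956), Rnf115 for Elf2 (0.975), Heatr1 for Elf4 (0.965), Erbb2ip for Gabpa (0.994), Fyttd1 for Etv6 (0.965) and Prmt7 for Spi1 (0.965). No member was among the 3 genes most like any other member, not even its chromosomal neighbor. For Erg, the lymphoma values behind the correlation were at most 8 normalized counts, and the Spearman rho with 1810034E14Rik was 0.741.

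The position of the members was looked at because 4 of them lie as 2 close pairs, Fli1 with Ets1 on chromosome 9 and Erg with Ets2 on chromosome 16, 115.5 kb apart. Within 2 Mb of the midpoint of Fli1 and Ets1, 10 other genes were tested. In the Atm-/- lymphomas 9 of these 10 had a difference below 0, 5 passed as lower and 0 as higher, and the median log2 difference was -1.08, beside -0.06 for the 905 tested genes of chromosome 9. In the Rag2c/c p53-/- lymphomas 9 of 10 were below 0, 2 passed as lower and 0 as higher, and the median was -0.75, beside -0.05 for the chromosome. Of the chromosome 9 genes tested, 24.9% passed as lower in the Atm-/- and 20.9% in the Rag2c/c p53-/- lymphomas. The 2 of 10 in the Rag2c/c p53-/- lymphomas was thus near that share. Over all genes tested, 23.6% and 19.7% passed as lower and 21% and 17.5% as higher in the same order. Arhgap32 had the lowest values around Fli1 and Ets1, at -6.18 and -5.93. Around Erg and Ets2, 29 other genes were tested, of which 3 passed as lower and 6 as higher in the Atm-/- lymphomas, with a median of 0.22, and 4 and 5 in the Rag2c/c p53-/- lymphomas, with a median of -0.07. The region of Elf1 on chromosome 14 differed between the comparisons, with a median over 15 tested genes within 2 Mb of -0.54 in the Atm-/- and 0.21 in the Rag2c/c p53-/- lymphomas, beside -0.37 and -0.04 over the 634 tested genes of the chromosome, so Elf1 at -1.55 and -1.05 was below its surroundings in both. DNA copy number was not analysed here, and the part of the surroundings in these results was not tested.

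**Figure D3:**
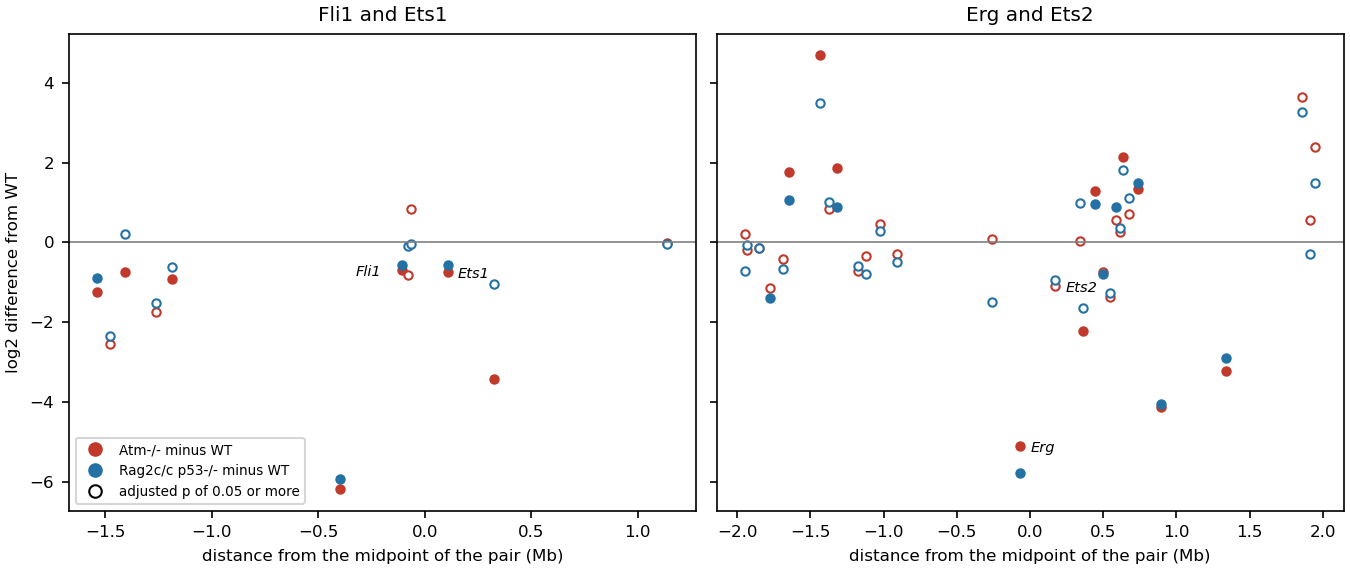
Log2 difference from WT (vertical axis) of each tested gene within 2 Mb of the midpoint of each pair of neighboring members (horizontal axis, distance in Mb), in red for Atm-/- and blue for Rag2c/c p53-/- lymphomas, with open circles for an adjusted p of 0.05 or more. Around Fli1 and Ets1, 9 of the 10 other genes lie below 0 in each comparison, whereas around Erg and Ets2 the genes lie on both sides of 0.

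The mouse genome has 16 more ETS genes in the list used, and 11 of them could be tested. Elk4, a partner of serum response factor and the most abundant of these, fell from 6046, 5175 and 6456 normalized counts in WT to between 2130 and 3256 in the Atm-/- (log2 difference -1.19, SE 0.19, limma adjusted p = 0.00025) and between 2245 and 3745 in the Rag2c/c p53-/- lymphomas (-1.05, SE 0.19, limma adjusted p = 0.00086). Elk3, of the same subfamily, fell from a WT mean of 2440 to 988 (-1.38, limma adjusted p = 0.00072) and 1270 (-0.96, limma adjusted p = 0.0091). Etv1, of the PEA3 subfamily, had 41, 42 and 36 in WT, at most 4 in the Atm-/- and at most 2 in the Rag2c/c p53-/- lymphomas, and passed as lower in both (limma adjusted p = 0.00034 and 0.00019). Like Erg, it entered the fit through the 3 WT libraries alone, so a difference was built into its being tested. In all, 3 of the 11 passed as lower in the Atm-/- lymphomas and 4 in the Rag2c/c p53-/- lymphomas, the fourth being Etv3, and 0 passed as higher in either. Etv1 is in both counts. Among all genes tested, 23.6% and 19.7% passed as lower and 21% and 17.5% as higher in the same order.

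Between the lymphoma groups, 3 of these 11 genes passed, against the 11.6% of all genes given above, 2 as higher and 1 as lower in the Atm-/- lymphomas. Etv3, a repressor, had 3848, 2626, 1844, 3918 and 2203 in the Atm-/- and 1111, 632, 1416, 615 and 1019 in the Rag2c/c p53-/- lymphomas, which did not overlap (log2 difference 1.601, SE 0.26, limma adjusted p = 0.0017), against 2690, 2414 and 2959 in WT. Etv4, of the PEA3 subfamily, was at 116, 87 and 96 in Atm-/- replicates 1, 2 and 4 and at 2 and 4 in replicates 3 and 5, and never above 3 in the Rag2c/c p53-/- lymphomas (3.53, SE 0.97, limma adjusted p = 0.0325). Its relative Etv5 ranged from 149 to 3943 in the Atm-/- lymphomas, with replicates 1 and 4 highest, and did not pass in any comparison. Ehf, an epithelial factor, was low throughout, at 3 to 14 and 14 to 35, and lower in the Atm-/- lymphomas (-1.55, SE 0.42, limma adjusted p = 0.0312). Spib, the closest relative of Spi1, varied from 62 to 877 in the Atm-/- and from 38 to 237 in the Rag2c/c p53-/- lymphomas, and did not pass.

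**Figure D4:**
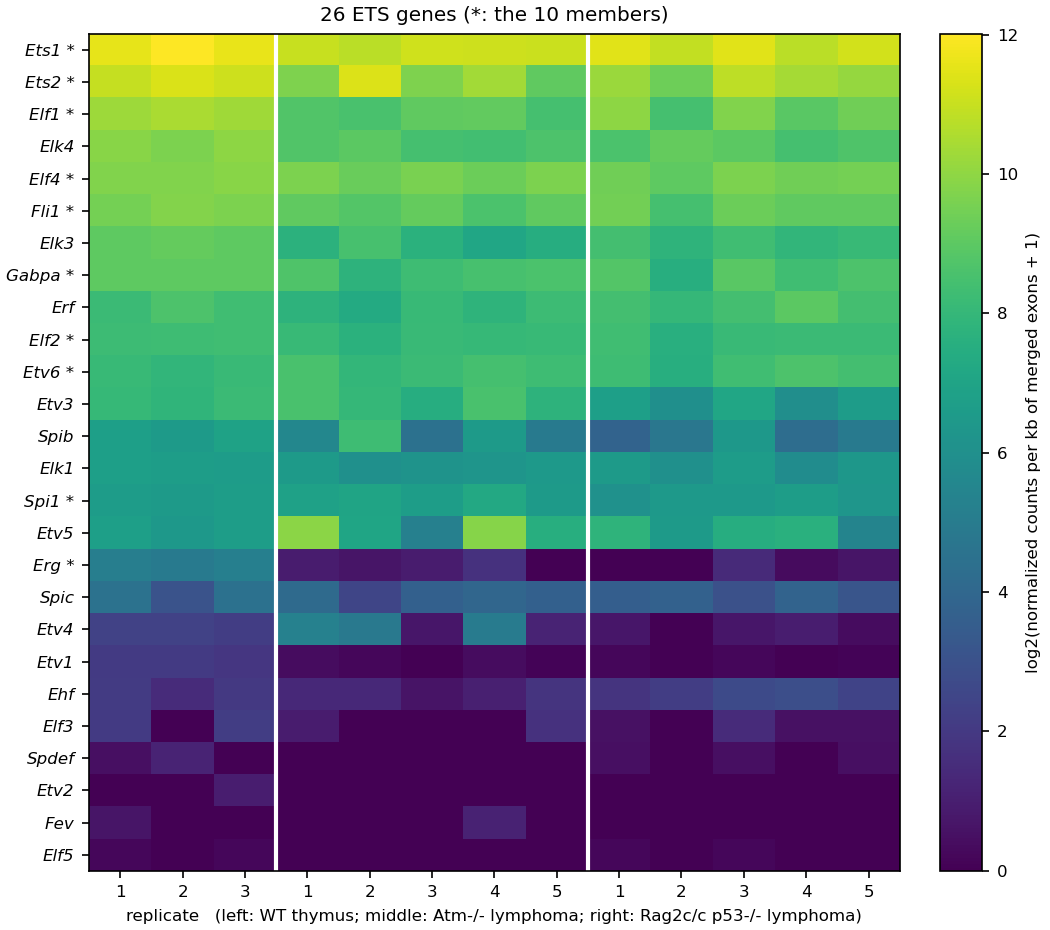
Level of the 26 ETS genes, as log2(normalized counts per kb of merged exons + 1) in color, in the 13 libraries (horizontal axis, replicate numbers within the 3 groups), ordered by the WT mean and with the 10 members marked by an asterisk. Ets1 is among the brightest in every library, Erg and Etv1 turn dark in the lymphomas, and Etv4 and Etv5 are bright in some Atm-/- libraries.

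Among 7 partners of ETS factors, 3 were lower in the Atm-/- and 2 in the Rag2c/c p53-/- lymphomas and 1 was higher in each. The shares of all genes tested were 23.6% and 19.7% lower and 21% and 17.5% higher in the same order. Gabpb2, a subunit that pairs with Gabpa, fell from 6687, 5769 and 7249 in WT to between 2000 and 4145 (log2 difference -1.04, limma adjusted p = 0.0062) and between 2290 and 4815 (-0.99, limma adjusted p = 0.0102). The other such subunit, Gabpb1, gave -0.29 and -0.08 and did not pass. Myb, the most abundant of the list and a progenitor factor, fell by 0.70 and 0.79 on the log2 scale, with limma adjusted p of 0.0222 and 0.0141. Srf, the partner of Elk factors, was lower in the Atm-/- lymphomas (-0.46, limma adjusted p = 0.0453). Of the RUNX factors, Runx1 passed as higher in the Atm-/- lymphomas (0.39, limma adjusted p = 0.0468) and Runx3, a factor of CD8 cells, in the Rag2c/c p53-/- lymphomas (1.36, limma adjusted p = 0.0022).

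Of 8 genes described as ETS targets in lymphocytes, 2 passed as lower in each comparison, both times Cd247, which encodes the CD3 zeta chain, and Dntt, which encodes terminal transferase. These counts were near the background, as 23.6% and 19.7% of all genes tested passed as lower. The shares that passed as higher were 21% and 17.5%. Dntt gave -1.07 (limma adjusted p = 0.0084) and -0.76 (limma adjusted p = 0.0493). Il7r, which encodes the interleukin-7 receptor and has been described as a target of GABP, had 2206, 1819 and 2398 in WT, 7078, 3387, 2860, 6581 and 5901 in the Atm-/- and 1967, 426, 1512, 188 and 1790 in the Rag2c/c p53-/- lymphomas. The 2 lymphoma groups did not overlap for Il7r (log2 difference 2.52, SE 0.56, limma adjusted p = 0.0114), while neither passed against WT. Lck, the most abundant of the list, did not pass in any comparison. Of 8 PU.1 targets in myeloid cells, Cd14, Fcgr3 and Itgam were higher in the Atm-/- lymphomas. In the Rag2c/c p53-/- lymphomas Cd14 and Fcgr3 were higher and Cybb, a subunit of the phagocyte oxidase, was lower (-1.12, limma adjusted p = 0.0098). Of 8 genes described as targets of Erg or Fli1, 5 could be tested, and Pf4 was higher in both groups, at 3.68 and 2.98. Eng, which encodes endoglin, was lower in the Atm-/- lymphomas (-3.31, limma adjusted p = 0.0123) and ranged from 37 to 834 in the Rag2c/c p53-/- lymphomas, and Cdh5, the cadherin of endothelium, was lower in the latter (-2.93, limma adjusted p = 0.0183). Cdh5 would not have met the filter on low values without the WT libraries, nor Pf4 without lymphoma libraries. A difference was thus built into the testing of these 2 genes.

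Markers of other cell types also moved. As background, 23.6% of all genes tested passed as lower and 21% as higher in the Atm-/- lymphomas. In the Rag2c/c p53-/- lymphomas these shares were 19.7% and 17.5%. Of the B cell markers, 5 of 6 passed as lower in the Atm-/- and 6 of 6 in the Rag2c/c p53-/- lymphomas, and their sum was 1446 to 1770 in WT, 103 to 272 and 92 to 506. Of the fibroblast markers, 4 of 6 were higher in each, with sums of 175 to 182, 3488 to 15853 and 581 to 1945. Of the thymic epithelium markers, 4 of 6 were lower in each, with sums of 725 to 1058, 189 to 609 and 287 to 1320, and Psmb11 was listed at 0 in all 5 Atm-/- libraries. Of the dendritic cell markers, 4 and 3 of 6 were lower. Of the 4 erythroid markers tested, Klf1 passed as higher in both, at 3 to 5 in WT, 7 to 29 and 6 to 30. Hbb-bs, the most abundant of that list, did not pass. Klf1 and the fibroblast marker Pdgfra entered the fit through lymphoma libraries alone. Foxn1 and Psmb11 of the thymic epithelium entered it through the WT libraries alone. A difference was thus built into the testing of these genes. Among the thymocyte markers, Cd8a and Themis were lower in the Atm-/- and Themis in the Rag2c/c p53-/- lymphomas. The part of each cell type in the ETS results was not tested.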

How the data were processed

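Polyadenylated RNA of single-cell suspensions was sequenced in 13 libraries. The deposited values are whole numbers whose column totals are near equal, and were taken as a score: normalized counts that the authors rounded. The submitters' processing notes name bcl2fastq 1.8.3, STAR 2.4.0g1, Picard, DESeq2 1.6.3 and GRCm38. The table's overall mean is not the mean of these 13 columns, so its scaling may rest on further libraries. The authors' columns of group means, fold changes and p-values were not used. Reads were not recovered as whole numbers, so no count test was run, and depth is an estimate from the worth of 1 read.

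Genes that reached 10 in 3 or more libraries were fitted with limma 3.58.1 (R 4.3.3) on log2(value + 1), with 3 groups in 1 fit, trend and robust moderation and Benjamini-Hochberg adjustment over 15872 genes; a gene changed if the adjusted p was under 0.05, the absolute log2 difference at least 1 and 1 group mean at least 10. The step was tested on simulated data. Named were the 10 members, changed genes of each list (up to 4 per comparison), the most abundant gene of a list and, by correlation, the most like genes; Gabpb1, Srf, Runx1, Cd247, Etv5, Spib and Arhgap32 were named after their values were seen. Members and lists were chosen with earlier results of these data known. Exon lengths came from GENCODE vM21. No source states that replicates are separate animals, so p-values measure the spread between these samples. Alternatives were other pseudocounts, filters, scalings and fits, and leaving out each library.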

Additional observations from a re-analysis of the deposited data

Results flagged for a closer look

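Among the 21 ETS genes tested, each lymphoma group of 5 was examined for a library set apart from the other 4, by the gap to its nearest neighbor as a share of the group's range on the log2 scale. Chance marks about 1 in 20 groups, and 3 of 42 were marked. For Elf2 in the Atm-/- lymphomas the gap below the other libraries was 0.819 of the range (replicate 2, at 1971), and for Elf2 in the Rag2c/c p53-/- lymphomas it was 0.763 (replicate 2, at 1797). For Spic, a low relative of Spi1, it was 0.71 in the Atm-/- lymphomas (replicate 2, at 18).

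In 3 ETS genes outside the 10 members the effects in the lymphoma groups differed by the limma test of the difference itself. Etv3 was higher in the Atm-/- than in the Rag2c/c p53-/- lymphomas by 1.601 on the log2 scale and Etv4 by 3.53, the latter carried by 3 of the 5 Atm-/- libraries, while for Ehf the difference was -1.55.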

How the results depend on the processing

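Over 26 alternatives and 30 member differences, 707 of 767 values kept their direction and side of the threshold, 34 lost the call, 15 gained it and 11 turned sign. With 1 library left out, 2 to 6 members passed as lower in the Atm-/- and 0 to 5 in the Rag2c/c p53-/- lymphomas, and 0 to 1 between the lymphoma groups. The low counts without a WT library arise in part because Erg then misses the value filter. The next settings were chosen after seeing the data. Without the 2 shallowest libraries, 0 members passed as lower in the Rag2c/c p53-/- lymphomas at the original filter and 1 with the value minimum asked of 2 libraries. With that minimum, 1 passed without WT replicate 2 and 2 without WT replicate 3. Etv6 was -0.13 between the lymphoma groups without the 2 shallowest libraries under both filters, against 0.05 with all. The other sign changes, all between the lymphoma groups and far from the threshold, came with 1 library left out: Ets2 ranged from -0.48 to 0.10 (0.10 and 0.02 where turned), Elf2 from -0.18 to 0.03 (0.033 and 0.007), Gabpa from -0.30 to 0.08 (0.084, 0.016 and 0.055) and Etv6 from -0.13 to 0.16 (-0.02 and -0.13). The cause was not tested.

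The labels give no pairing between samples of different groups, so no paired analysis was run. The replicate numbers of the lymphomas were assigned here in sample order and are not in their titles. Depth limits Erg, Etv1, Etv4 and Ehf, where 3 reads were worth 1.53 to 10.1 normalized counts, and intervals for genes this low cover few reads.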
